A study of Rattus norvegicus with 9 samples.

Results

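The enzymes that break down amino acids were followed in the kidneys of 9 rats, 4 labelled case and 5 labelled control. The module was fixed as a list of 40 genes, chosen with earlier results of these data known. It covers the breakdown of lysine, the branched-chain amino acids, glycine and serine, the aromatic amino acids, and arginine with its relatives ornithine, proline and creatine. Every probe set whose single platform symbol was a listed gene was taken, which gave 41 probe sets for 38 of the 40 genes among the 15866 probe sets that are not array controls. Amt and Hgd are not analysed here. Of the 41 probe sets, 38 passed the filter on dim signals, and they stood for 36 genes.

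The series concerns hypotension, and total RNA of each kidney was measured on 1 Affymetrix RAE230A array, which reads each transcript with 1 or more probe sets, groups of short oligonucleotides. The labels give the tissue and the words case and control. The sources used here do not give the strain, sex, age, part of the kidney or treatment of either group, so both groups go by their label. All values are array signals on a linear intensity scale, and all differences are of log2(signal + 5.03), case minus control.

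Amino acid breakdown removes nitrogen from an amino acid and passes its carbon skeleton, mostly inside mitochondria, to the citric acid cycle, ketone bodies or glucose. In the kidney it is concentrated in the proximal tubule, which reabsorbs filtered amino acids and makes glucose, ammonia, arginine and guanidinoacetate. In rat liver, serine dehydratase and tyrosine aminotransferase are textbook examples of enzymes induced by glucocorticoids and glucagon.

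No member passed the test. With limma, a linear model fitted over all 9519 probe sets, 0 of the 38 member probe sets had an adjusted p under 0.05, against a background of 0% of all probe sets. An unadjusted p under 0.05 was found for 5 members, or 13.2% of 38, where the background was 6.69% of all probe sets tested. Of these 5, Prodh, Sds and Aass had higher signal in case, against a background of 2.88% in that direction. Acadsb and Gatm had lower signal, against a background of 3.81%. The case and control values overlapped for each of the 38 probe sets, so 0 were fully separated, where the background was 1.88%. As the members were chosen with earlier results known, their shares are no test against the background.

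For most enzymes the 95% interval of the difference between the groups covered 0. The median difference over the 36 genes was 0.13 on the log2 scale, and 25 of 36 (69.4%) lay above 0. Leaving out 1 animal at a time, the member median was 0.06 to 0.12, with 0.06 without case animal 8, 0.07 without case animal 3 and 0.08 without control animal 11. Over all 7147 genes, each taken by its brightest probe set, the median was -0.01 and 48.2% lay above 0. The choice of members with results known bears on this gap too, and it was not tested. For 22 of the 36 genes the 95% interval of the difference lay within a change of 1.5-fold in either direction, a share of 61.1%, where 68.6% of all genes did so. In the arginine group 3 of 8 did so. For the rest of the 36 genes the interval does not bound the change to 1.5-fold.

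**Figure D1:**
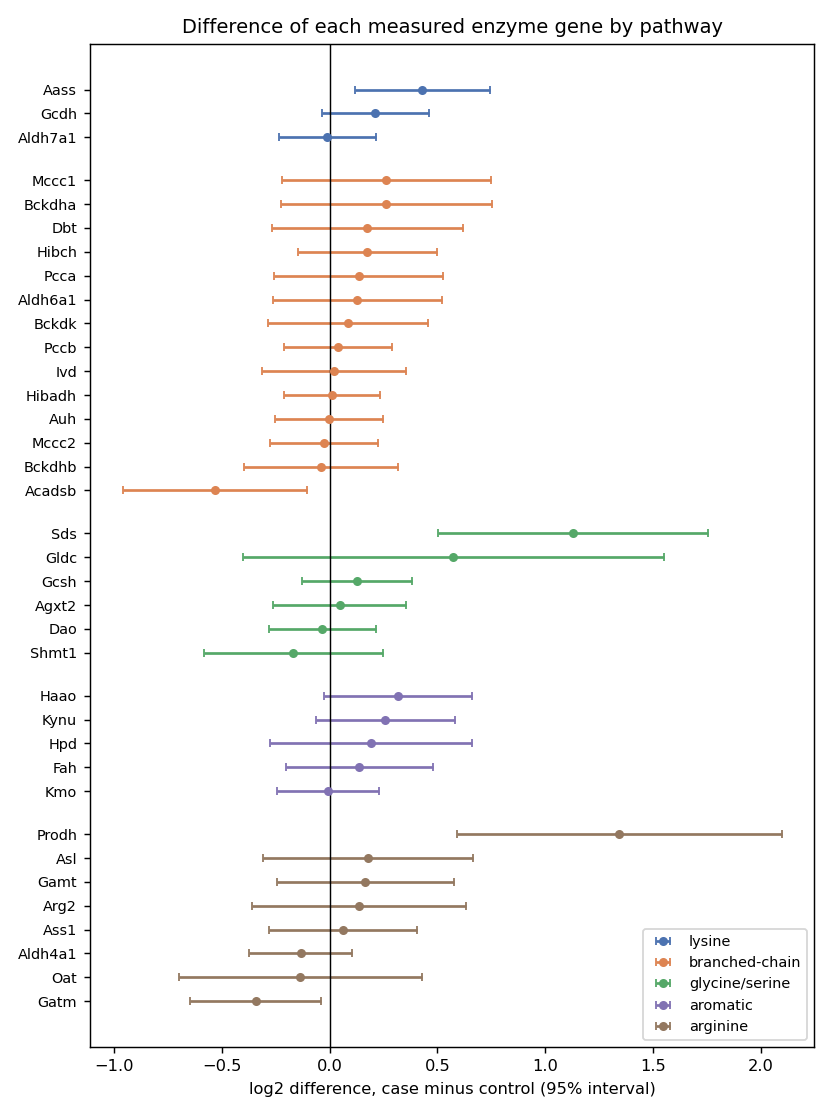
The log2 difference between case and control is plotted for each of the 36 measured enzyme genes with its 95% interval, grouped and coloured by pathway. Prodh and Sds lie farthest to the right, at 1.34 and 1.13, Acadsb lies farthest to the left, at -0.53, and most intervals cross 0.

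Markers of the proximal tubule, where many of these enzymes are made, lay on both sides of 0. Of 17 tested, 7 lay above 0, with a median difference of -0.01, and their summed signal ranged from 25430.6 to 35321.6 in case and from 25210.4 to 31564.6 in control. In whole kidney, fewer cells of a type and less RNA per cell cannot be told apart. The 6 smooth muscle and mesangial markers tested all lay below 0, with a median of -0.32 and summed signals of 300.8 to 376.5 in case and 364.9 to 400.5 in control. Of 7 endothelial markers, 5 lay below 0, with a median of -0.22, and their summed signal was 831.5 to 1122.1 in case and 939.3 to 1112.3 in control. The liver markers Alb, Apoa1, Serpina1, Fgb, Fga, Ahsg and Itih3 were below the filter, and the summed liver signal was 149.9 to 261.5 in case and 170.4 to 313.8 in control. No marker of these lists was at 0 on all arrays.

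The ratio of the 3' to the 5' actin control probe sets, a measure of RNA shortening, was 3.05 and 3.11 on the arrays of case animals 7 and 8. On the other 7 arrays it lay between 1.12 and 1.998. The same ratio for GAPDH was 2.09, 2.39 and 1.93 in case animals 3, 7 and 8, above every control (1.56 to 1.79). In case animal 5 it was 1.55, just under the lowest control. The actin ratio of case animal 5, at 1.52, was near that of case animal 3, at 1.57. Case animal 5 stood apart from the other 3 cases in Prodh, Sds, Acadsb and Arg2 below, but lay within their range for Aass and Gatm. The labels name no staining run. The arrays were sorted into 3 runs of 1 fluidics station by their recorded times, a new run starting after a gap of at least 10 minutes. Case animals 3, 5 and 7 shared run 1 with control animal 4. Case animal 8 shared run 2 with control animals 9, 10 and 11, while control animal 12 was alone in run 3. Differences with the actin ratio as a covariate and within runs are given for the genes shown animal by animal, other than Arg2; within a run 1 group has a single animal, so those values are given with no test. The part of the GAPDH ratio and of the marker lists in the differences was not tested.

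Among the genes of arginine, ornithine, proline and creatine, the enzyme that opens proline breakdown stood out in 3 of the 4 case kidneys. Prodh encodes proline dehydrogenase, which oxidises proline at the inner mitochondrial membrane. Its signal was 432.2, 153.7, 391.2 and 450.2 in case animals 3, 5, 7 and 8. It was 135.1, 137.8, 243.7, 71.3 and 99.3 in control animals 4, 9, 10, 11 and 12. Case animals 3, 7 and 8 lay above every control, and case animal 5 lay among the controls.

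Prodh averaged a signal of 357 ± 138 (SD) over the 4 case kidneys. Over the 5 control kidneys it averaged 137 ± 65.4 (SD). The log2 difference was 1.34 ± 0.35 (SE; limma adjusted p = 0.530), a fold of 2.54 on this scale. Blocking on the run gave 1.41, runs 1 and 2 taken alone gave 1.11 and 1.71, and the actin covariate gave 1.32. Without case animal 5 it was 1.70 and passed the test (limma adjusted p = 0.0246). A further Prodh probe set lay far below the filter, with signals of 1.6 to 12.4 over all 9 arrays, and says nothing on the difference.

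Gatm encodes arginine:glycine amidinotransferase, which makes guanidinoacetate, the precursor of creatine, mainly in the proximal tubule. Its signal was 781.8, 828.3, 895.2 and 606.6 in case animals 3, 5, 7 and 8. It was 1131.9, 934.5, 854.7, 874.3 and 1128.5 in control animals 4, 9, 10, 11 and 12. Of the case animals, 3 lay below every control, while case animal 7 lay above the 2 lowest controls.

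The log2 difference of Gatm was -0.34 ± 0.14 (SE; limma adjusted p = 0.677). Blocking on the run gave -0.49, runs 1 and 2 alone gave -0.44 and -0.54, and the actin covariate gave -0.34. Leaving out case animals 7 and 8 gave -0.28. Gamt, which methylates guanidinoacetate to creatine, differed by 0.17 ± 0.19, with its highest signal, 630.3, in case animal 3. Without case animal 3 the Gamt difference was -0.02. Neither gene passed the test.

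No other gene of this group had an unadjusted p under 0.05. Aldh4a1, which takes over the product of proline dehydrogenase and oxidises it to glutamate, differed by -0.13 ± 0.11 (SE; limma adjusted p = 0.885), with a 95% interval of -0.37 to 0.10. The 2 consecutive enzymes of proline breakdown thus had differences of 1.34 and -0.13, and the difference between them was not tested. Ass1 and Asl, which make arginine from citrulline for the rest of the body, had 95% intervals of -0.28 to 0.41 and -0.31 to 0.67. A further Asl probe set gave -0.02 where the brighter one gave 0.18. Oat, which converts ornithine, had an interval of -0.70 to 0.43. Arg2, the mitochondrial arginase, had one of -0.36 to 0.63. Its signal was 197.0, 90.6, 201.5 and 192.7 in case animals 3, 5, 7 and 8 and 114.6 to 173.3 in control, so 3 cases lay above every control and case animal 5 below all of them. Arg2 is singled out here after its values were seen.

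In the glycine and serine group 1 gene, Sds, had an unadjusted p under 0.05. Sds encodes serine dehydratase, which turns serine into pyruvate and so feeds glucose production. Its signal was 106.9, 42.8, 110.8 and 163.3 in case animals 3, 5, 7 and 8. It was 42.0, 43.0, 33.4, 37.4 and 52.6 in control animals 4, 9, 10, 11 and 12. Again case animals 3, 7 and 8 lay above every control and case animal 5 lay among the controls.

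Sds averaged a signal of 106 ± 49.3 (SD) over the 4 case kidneys. Over the 5 control kidneys it averaged 41.7 ± 7.21 (SD). The log2 difference was 1.13 ± 0.29 (SE; limma adjusted p = 0.530), a fold of 2.18. The actin covariate gave 0.80, leaving out case animals 7 and 8 gave 0.66, blocking on the run gave 1.42, and run 1 alone gave 0.86. Run 2 alone gave 1.98, from the single case animal 8, which had the highest Sds signal of the 9. Without case animal 5 it was 1.49 (limma adjusted p = 0.00971). As for Prodh, leaving out the case that lay among the controls widens the difference by construction. The control signals lie close to the level of the filter, a signal of 33.3, so the pseudocount weighs on this fold.

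**Figure D2:**
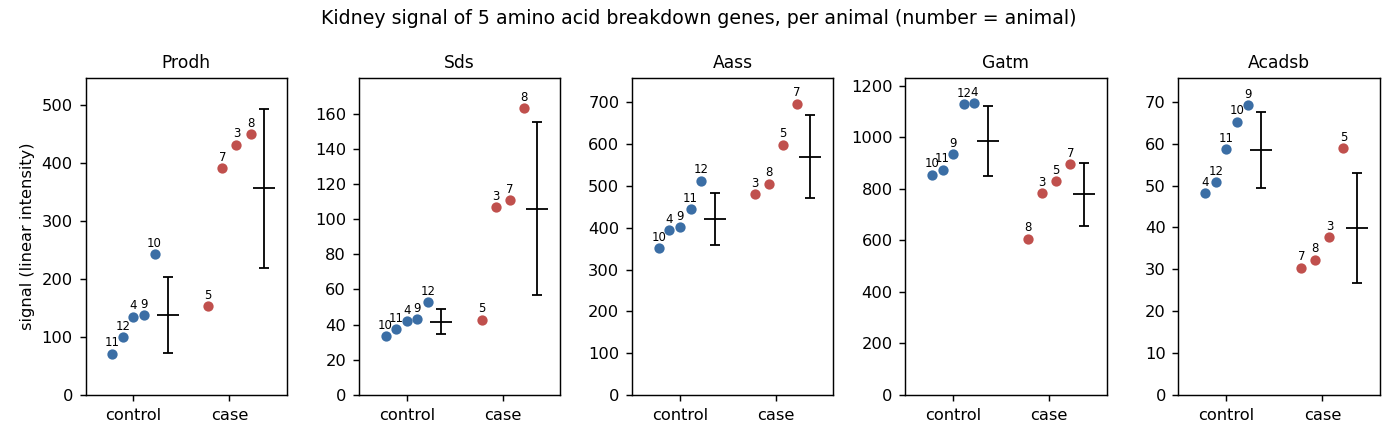
Signal on a linear scale is plotted per animal for the 5 members with an unadjusted p under 0.05, with controls in blue, cases in red, the animal number over each point, and bars for the mean and SD of each group (n = 5 and 4). Case animal 5 sits among the controls for Prodh, at 153.7, and Sds, at 42.8, and is the highest case for Acadsb, at 59.0.

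The glycine cleavage system, which splits glycine into carbon dioxide, ammonia and a folate-bound carbon, was represented by Gldc and Gcsh. Gldc, its decarboxylase, differed by 0.57 ± 0.45 (SE; limma adjusted p = 0.877), by 0.16 without control animal 11, by 0.87 without control animal 4 and by -0.51 in run 1 alone. Its signal spread from 17.2 in control animal 11 to 150.9 in control animal 4, the widest spread within groups of any member tested (pooled SD of 0.88 on the log2 scale). Gcsh, its lipoyl-carrying protein, differed by 0.13 ± 0.12, and Shmt1, which interconverts serine and glycine, by -0.17 ± 0.19. Agxt2, an aminotransferase that also degrades dimethylarginines, had a 95% interval of -0.26 to 0.36, and Dao, the peroxisomal D-amino acid oxidase, one of -0.28 to 0.21. Agxt, the peroxisomal alanine-glyoxylate aminotransferase, was below the filter, with signals of 3.5 to 23.6.

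Of the 5 pathways, lysine breakdown had the smallest median spread within groups, a pooled SD of 0.14 on the log2 scale. Aass encodes the bifunctional enzyme that joins lysine to 2-oxoglutarate and splits the product in the first steps of the pathway. Its signal was 479.5, 599.1, 697.0 and 505.3 in case animals 3, 5, 7 and 8. It was 393.4, 401.9, 350.6, 444.9 and 512.5 in control animals 4, 9, 10, 11 and 12. The groups overlapped only through control animal 12, which lay above case animals 3 and 8.

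The log2 difference of Aass was 0.43 ± 0.14 (SE; limma adjusted p = 0.644). Blocking on the run gave 0.45, runs 1 and 2 alone gave 0.57 and 0.34, and the actin covariate gave 0.34. Leaving out case animals 7 and 8 gave 0.36. Gcdh, the glutaryl-CoA dehydrogenase that lysine and tryptophan breakdown share, had signals of 862.7 to 1085.3 in case and 793.1 to 964.7 in control, and differed by 0.21 ± 0.11. Aldh7a1, which oxidises the semialdehyde between the steps of Aass and Gcdh, differed by -0.01 ± 0.10, with a 95% interval of -0.24 to 0.21. None of the 3 passed the test, and the differences between them were not tested.

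The branched-chain group was the largest, with 14 genes, and had the smallest median difference, 0.06. Leucine, isoleucine and valine share the branched-chain ketoacid dehydrogenase, after which each follows its own chain of mitochondrial steps. Of the 14 genes 10 lay above 0, and for 10 the 95% interval lay within 1.5-fold in either direction. Acadsb, the acyl-CoA dehydrogenase of isoleucine breakdown, was the 1 with an unadjusted p under 0.05. Its signal was 37.7, 59.0, 30.4 and 32.3 in case animals 3, 5, 7 and 8. It was 48.3, 69.2, 65.3, 58.8 and 50.9 in control animals 4, 9, 10, 11 and 12. Case animals 3, 7 and 8 lay below every control, and case animal 5 lay within them.

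The log2 difference of Acadsb was -0.53 ± 0.20 (SE; limma adjusted p = 0.644), a fold of 0.69. Runs 1 and 2 alone gave -0.22 and -0.89, and blocking on the run gave -0.55. The actin covariate gave -0.37, and without case animals 7 and 8 it was -0.27. Its signals are dim, at most 69.2, so the pseudocount reduces the difference.

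The dehydrogenase complex itself showed no difference beyond the spread between animals. Bckdha, its E1 alpha subunit, differed by 0.26 ± 0.23, but its value moved with the setting. It was -0.08 when the run was a block, 0.47 with the actin covariate, 0.53 without case animals 7 and 8, 0.40 without control animal 4, 0.15 without control animal 12 and 0.06 without case animal 5. Bckdhb, the E1 beta subunit, had a 95% interval of -0.40 to 0.32, Dbt, the E2 core, one of -0.27 to 0.62, and Bckdk, the kinase that switches the complex off, one of -0.28 to 0.46. Mccc1, the biotin-carrying subunit of the leucine pathway's carboxylase, differed by 0.26 ± 0.22 (SE; limma adjusted p = 0.887) and Hibch, a hydrolase of valine breakdown, by 0.18 ± 0.15. The partner subunit Mccc2 had an interval of -0.28 to 0.22.

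The later steps gave similar intervals. Hibadh, a dehydrogenase of valine breakdown, had the smallest spread within groups of the 38 probe sets tested, with a pooled SD of 0.10 on the log2 scale, and a 95% interval of -0.21 to 0.23. Auh, a hydratase of leucine breakdown, had an interval of -0.26 to 0.25. Pcca and Pccb, the subunits of propionyl-CoA carboxylase, had intervals of -0.26 to 0.53 and -0.21 to 0.29, and Ivd, the isovaleryl-CoA dehydrogenase, one of -0.31 to 0.36. The 2 probe sets of Aldh6a1, which ends valine breakdown, differed in sign, at 0.13 for the brighter and -0.12 for the other.

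In the aromatic group 4 of the 5 tested genes lay above 0, and none passed the test. Haao, which makes quinolinic acid's precursor in tryptophan breakdown, had signals of 1022.6, 677.0, 686.8 and 1035.9 in case animals 3, 5, 7 and 8. In control animals 4, 9, 10, 11 and 12 they were 582.0, 658.3, 824.8, 664.1 and 647.8. Case animals 3 and 8 lay above every control and case animals 5 and 7 among them.

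Haao differed by 0.32 ± 0.16 (SE; limma adjusted p = 0.778), with 0.36 under the actin covariate and 0.42 and 0.54 in runs 1 and 2 alone. Kynu, the kynureninase one step before it, differed by 0.26 ± 0.15. Kmo, the monooxygenase before Kynu, had a 95% interval of -0.25 to 0.23. Of the tyrosine genes, Hpd, the hydroxyphenylpyruvate dioxygenase, differed by 0.19 ± 0.22 and Fah, the last enzyme of the pathway, by 0.14 ± 0.16. Within run 1 these 2 differences were -0.47 and -0.17, and within run 2 they were 0.74 and 0.50, so the sign turned between runs. Tat, the tyrosine aminotransferase known from liver, had signals of 1.1 to 4.5 on all 9 arrays, below the filter.

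The same pathways hold further genes, 90 of which were listed. The list reaches beyond breakdown, with synthesis genes such as Phgdh, Psat1 and Glul among them. Of 54 tested, 0 passed the limma test, 37 lay above 0, and the median difference was 0.07. Of them, 2 higher and 1 lower had an unadjusted p under 0.05. These 3 of 54 are a share near the background over all 7147 genes, which was 5.79%. For 3 the groups were fully apart, where the background over genes was 1.96%. These 3 were Acmsd, Kyat1 and Hoga1, a lyase that ends hydroxyproline breakdown, named here after its values were seen. Hoga1 had signals of 512.6 to 544.3 in case and 550.5 to 622.2 in control, a difference of -0.12. A further Hoga1 probe set, with overlapping groups, gave -0.51, and another was below the filter.

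Of these 54 further genes, Acmsd of tryptophan breakdown had the smallest p. Acmsd encodes the decarboxylase that draws the tryptophan pathway away from quinolinic acid and NAD synthesis. Its signal was 226.4, 238.5, 218.9 and 230.7 in case animals 3, 5, 7 and 8. It was 511.4, 287.8, 381.7, 326.1 and 301.2 in control animals 4, 9, 10, 11 and 12. Every case animal lay below every control, and the case values were close together.

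Acmsd differed by -0.62 ± 0.16 (SE; limma adjusted p = 0.530), with -0.83 after blocking on the run and -1.15 and -0.51 in runs 1 and 2 alone, and -0.55 under the actin covariate. Without control animal 4, whose signal was the highest, it differed by -0.49. Kyat1, a kynurenine aminotransferase, had signals of 465.7 to 555.8 in case and 317.2 to 450.8 in control, with no overlap, and differed by 0.41 ± 0.12 (SE; limma adjusted p = 0.644). Gstz1, the isomerase of tyrosine breakdown just before Fah, differed by 0.38 ± 0.13 and is the other gene of this count, named after its values were seen. In the order of the tryptophan pathway, Kmo, Kynu and Haao differed by -0.01, 0.26 and 0.32, and the enzyme after them, Acmsd, by -0.62. None of these genes passed the test, and the differences between the steps were not tested.

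**Figure D3:**
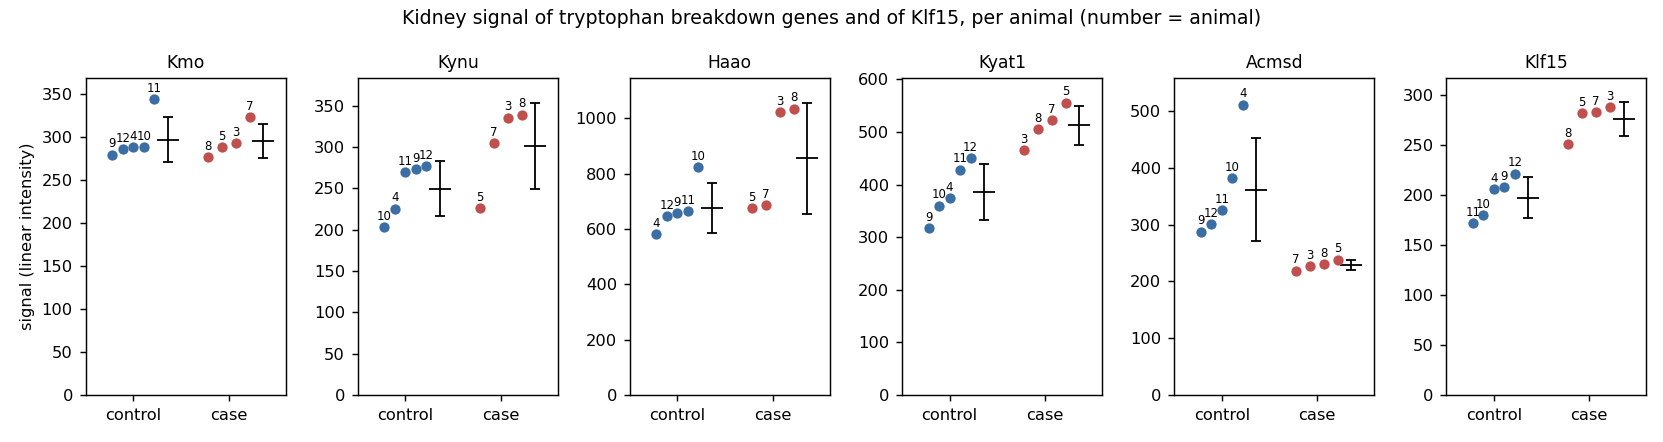
Signal on a linear scale is plotted per animal for the tryptophan breakdown genes Kmo, Kynu, Haao, Kyat1 and Acmsd and for the regulator Klf15, with the mean and SD of each group (n = 5 controls and 4 cases). All 4 case animals lie below the controls for Acmsd and above them for Kyat1 and Klf15, while Kmo overlaps throughout.

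In the other pathways the 2 further genes with the smallest p all overlapped between groups. For the branched-chain group they were Acaa2, a thiolase, at 0.34 ± 0.16, and Hsd17b10, a dehydrogenase of isoleucine breakdown, at 0.25 ± 0.12. For glycine and serine they were Shmt2, the mitochondrial hydroxymethyltransferase, at 0.32 ± 0.17, and Gnmt, which methylates glycine, at 0.34 ± 0.17. For arginine and proline they were Prodh2, which oxidises hydroxyproline, at 0.29 ± 0.17, and Sat1, a polyamine acetyltransferase, at 0.23 ± 0.14. For lysine they were Hadh at 0.12 ± 0.11 and Aadat at -0.13 ± 0.16. Each of these 8 had a limma adjusted p above 0.75.

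Of 10 listed regulators, 5 were tested and 0 passed the limma test. Klf15, a transcription factor known in mouse to drive branched-chain and other amino acid breakdown genes, had signals of 288.0, 282.5, 283.0 and 251.3 in case animals 3, 5, 7 and 8. In control animals 4, 9, 10, 11 and 12 they were 206.1, 207.8, 180.3, 171.9 and 221.7. Every case animal lay above every control. Klf15 was the 1 regulator of the 5 tested without overlap, where the background over genes was 1.96%.

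Klf15 differed by 0.48 ± 0.12 (SE; limma adjusted p = 0.530), with 0.44 after blocking on the run and 0.46 and 0.42 in runs 1 and 2 alone, and 0.47 under the actin covariate. Hnf4a, a transcription factor of proximal tubule and liver, differed by -0.86 ± 0.35 (limma adjusted p = 0.677), with signals of 44.6 and 71.5 in case animals 7 and 8, the arrays with the highest actin ratios, and 137.3 and 243.8 in case animals 3 and 5. The controls had 166.7 to 231.7. With the actin covariate it differed by -0.35, and without case animals 7 and 8 by -0.06. Runs 1 and 2 alone gave -0.84 and -1.34. A further Hnf4a probe set gave -0.49.

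A score per animal summarised each pathway as the mean log2 value of its genes minus the mean of all 7147 genes. Over all 36 genes the score was 1.72, 1.57, 1.68 and 1.74 in case animals 3, 5, 7 and 8. It was 1.53, 1.53, 1.54, 1.45 and 1.56 in control animals 4, 9, 10, 11 and 12. Every case animal lay above every control, by a margin of 1.57 against 1.56 at the closest. This narrow margin was between case animal 5 and control animal 12, whose Prodh signals were 153.7 and 99.3. Prodh and Sds, at 1.34 and 1.13, had the largest differences of the 36 genes and weigh on this mean. The score without them was not computed, so the separation may rest on single genes. No test is given, since the genes were chosen with results of these arrays known.

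The difference of the score over all genes was 0.16, with 0.18 after blocking on the run, 0.13 and 0.23 in runs 1 and 2 alone, and 0.14 with the actin covariate. By pathway the score differed by 0.22 for lysine, 0.06 for branched-chain, 0.29 for glycine and serine, 0.19 for aromatic and 0.17 for arginine. In none of the 5 pathways alone were the groups fully apart. The lysine score averaged 2.75 ± 0.05 (SD) over the 4 cases, against 2.53 ± 0.12 (SD) over the 5 controls. The branched-chain score was 0.97 ± 0.04 in case and 0.91 ± 0.07 in control. With the filter at the 60th percentile, which leaves out Sds, the glycine and serine score differed by 0.10. In the arginine group Prodh differed by 1.34, while the other genes lay between -0.34 and 0.18, on both sides of 0. The arginine score thus leans on Prodh, and its value without Prodh was not computed.

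**Figure D4:**
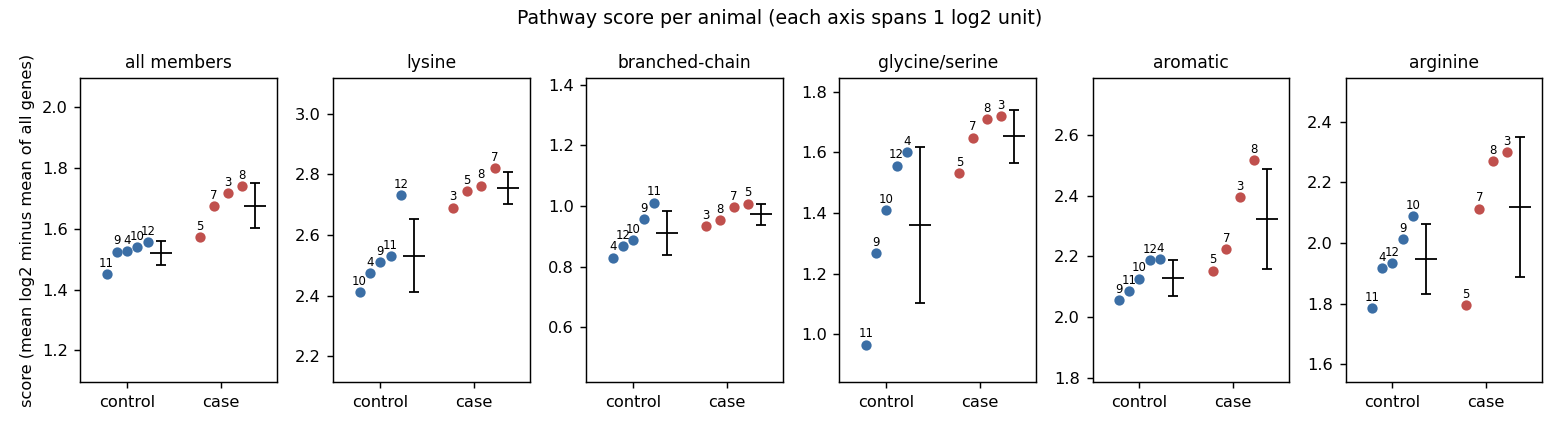
The score of each animal is plotted for all 36 genes and for the 5 pathways, in log2 units, with each vertical axis spanning 1 unit and bars for the mean and SD of each group (n = 5 controls, 4 cases). The groups are apart only in the score over all genes, and case animal 5 is the lowest case in 4 of the 6 panels.

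Some enzymes, chosen after their values were seen, had extreme signals in 1 animal of each group. Hpd had its highest signals, 2684.0 and 2596.8, in control animal 4 and case animal 5, and 1358.3 to 2431.8 in the other 7 animals. Oat had its lowest signals, 1075.1 and 946.3, in the same 2 animals, and 1816.2 to 2372.3 in the others. Ass1 was again highest there, at 2736.1 and 2907.3, against 1755.0 to 2316.3. Both animals were in fluidics run 1, as were case animals 3 and 7, which did not share these values.

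**Figure D5:**
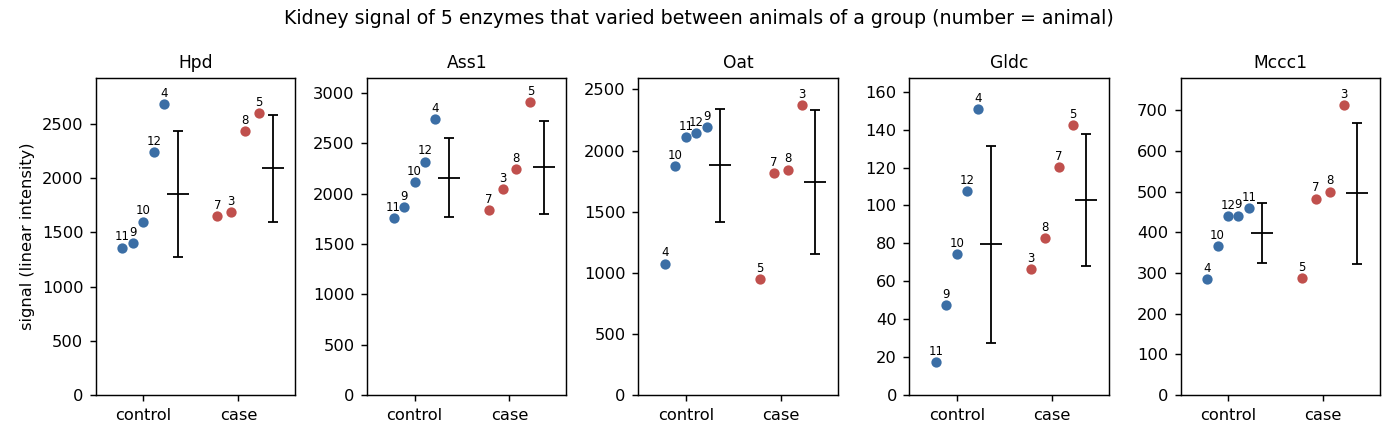
Signal on a linear scale is plotted per animal for Hpd, Ass1, Oat, Gldc and Mccc1, with the mean and SD of each group (n = 5 controls, 4 cases). Control animal 4 and case animal 5 hold the 2 highest values of Hpd, Ass1 and Gldc and the 2 lowest of Oat and Mccc1, so the groups overlap.

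Upstream sequence was available from RefSeq for 35 of the 40 listed genes, among them Aass, Gatm and Acadsb of the 5 members with an unadjusted p under 0.05. The 250 bases before the start given by that table, of build GRCr8, are shown for these 3 so that they can be set side by side. Prodh and Sds, whose signals differed most, are named only. Capitals mark CCAAT on either strand, so that ATTGG is also in capitals. The Aass window lies at chr4:52628812-52629061 on the minus strand, the Gatm window at chr3:130129094-130129343 on the minus strand, and the Acadsb window at chr1:195618966-195619215 on the plus strand.
Aass: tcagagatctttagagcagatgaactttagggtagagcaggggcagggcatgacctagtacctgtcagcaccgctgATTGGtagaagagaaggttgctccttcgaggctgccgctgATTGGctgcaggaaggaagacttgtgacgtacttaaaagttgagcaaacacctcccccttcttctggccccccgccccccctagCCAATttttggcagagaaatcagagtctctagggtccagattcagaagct
Gatm: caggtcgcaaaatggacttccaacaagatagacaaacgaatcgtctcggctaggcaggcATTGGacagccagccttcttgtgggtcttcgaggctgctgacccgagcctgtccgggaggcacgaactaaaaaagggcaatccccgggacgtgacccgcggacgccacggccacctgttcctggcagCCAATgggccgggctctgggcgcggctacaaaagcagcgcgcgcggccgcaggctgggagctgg
Acadsb: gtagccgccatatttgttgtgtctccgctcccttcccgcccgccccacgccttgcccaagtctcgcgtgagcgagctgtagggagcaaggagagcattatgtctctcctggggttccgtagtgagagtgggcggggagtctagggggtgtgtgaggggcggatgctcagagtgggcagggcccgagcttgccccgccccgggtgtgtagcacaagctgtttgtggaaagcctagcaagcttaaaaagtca

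The letters CCAAT occur 3 times before Aass, 2 times before Gatm and 0 times before Acadsb. They occur in 34.0% of the 33469 upstream windows of the table and in 20 of the 35 member windows (57.1%). Here and below, the table share counts every window and the member share counts 1 window per gene. The shares are thus not like for like. The letters GGGCGG, the core of a GC box, occur 1 time before Aass, 0 times before Gatm and 5 times before Acadsb on either strand, in 30.5% of all windows and in 57.1% of the member windows. TATAAA occurs in 12.9% of all windows, in 4 of the 35 member windows, and in none of the 3 shown. These matches describe letters and say nothing on which factor binds.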

How the data were processed

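Total RNA from 9 rat kidneys was measured on 1 RAE230A array each, per the file headers. The deposited table holds 1 linear intensity for each of 15923 probe sets and array. The authors had scaled the arrays, since the mean after trimming 2% at each end was 100.02 or 100.03 throughout. Which software summarised the probes is not given in the sources used here. Deposited experiment files, whose values are of other kinds than measurements, gave chip type, lot and run times. The median signal per array was 45.2 to 55.6, and the correlation between arrays on the log2 scale was 0.93 to 0.97.

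Symbols came from the platform annotation, set against RefSeq (GRCr8) by Entrez ID, with 12754 of 12783 single-symbol probe sets matched. The 57 control probe sets were left out. Values were taken as log2(signal + 5.03), with a pseudocount of 10% of the table's median of 50.3. Probe sets with a mean above the 40th percentile, near a signal of 33.3, were kept, which left 9519. Groups were compared over all of them with limma 3.58.1 in R 4.3.3 (lmFit, eBayes with trend, 2-sided, Benjamini-Hochberg, threshold 0.05). Each gene was taken by the probe set with the highest mean log2 value over the 9 arrays. The labels do not pair the animals, and their number limits the precision.

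The members and the gene lists were chosen with earlier results of these data known. Members were named where they were among the 4 with the smallest p of their pathway or had an unadjusted p under 0.05, and other pathway genes and regulators where they were among the 2 with the smallest p; Hoga1 and Gstz1 were added after their values were seen. The members beyond these are given by their levels and intervals. Alternatives covered pseudocount, filter, normalization, trend, array weights, the run, the actin ratio, each animal left out, and all probe sets of a gene. Leaving out case animals 7 and 8 was chosen after seeing the data. The limma step was tested on simulated data. Python 3.11.15, NumPy 2.4.6, pandas 2.3.3 and matplotlib 3.10.9 were used for tables and figures.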

Additional observations from a re-analysis of the deposited data

Results flagged for a closer look

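In 76 groups of values, 4 had a single animal far from the others by Dixon's criterion, which chance alone meets in about 1 in 20 groups. Prodh had a signal of 153.7 in case animal 5, far below the other 3 case animals at 391.2 to 450.2. Klf15 had 251.3 in case animal 8, below the other cases at 282.5 to 288.0. Shmt2 had 334.2 in control animal 4, above the other controls at 196.1 to 210.4. Gnmt had 56.6 in control animal 12, below the other controls at 86.3 to 99.2. The cause of each was not tested.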

How the results depend on the processing

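The direction of the score difference over all members and of each pathway score stayed above 0 under every alternative run. None of the alternatives left out Prodh. Without 1 animal at a time the number of member probe sets past the limma threshold was 0 to 2, and the 2, Prodh and Sds, came without case animal 5, when 53 of all 9519 probe sets passed. The number at an unadjusted p under 0.05, 5 in the main setting, was 3 to 10 without 1 animal (10 without case animal 5, 3 without case animal 8), 3 with the filter at the 60th percentile, 3 with the actin ratio and 1 without case animals 7 and 8. The share of all probe sets moved too, from 6.69% to 11.2%, 4.44%, 6.79%, 4.69% and 2.99% in that order. The number without overlap was 0 to 7 without 1 animal (7 without case animal 5) and 1 without case animals 7 and 8, where 7.88% and 6.91% of all probe sets did not overlap. Within run 1 the score difference was 0.15 for branched-chain, 0.031 for glycine and serine and 0.066 for aromatic. Within run 2 it was 0.23 for all members, 0.0018 for branched-chain, 0.49 for glycine and serine and 0.43 for aromatic. Median centring moved the median of all genes from -0.01 to 0.08 and that of the members from 0.13 to 0.22, and with quantile normalization they were 0.01 and 0.08.

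Of 19 named members 10 kept their sign in every alternative run, and of 13 other named genes 10 did. Aldh7a1 turned to 0.077 with median centring, 0.0020 with array weights, 0.0093 with the actin ratio, 0.10 within run 2 and 0.032 without case animals 7 and 8, and lay between -0.048 and 0.032 without 1 animal. Bckdha turned to -0.077 after blocking on the run and -0.21 in run 1. Within run 1 Fah turned to -0.17, Gcsh to -0.035, Gldc to -0.51, Hpd to -0.47, Prodh2 to -0.11 and Shmt2 to -0.32, and within run 2 Hibch to -0.11. Gamt lay between -0.019 (without case animal 3) and 0.30 without 1 animal, and Shmt1 turned to 0.015 without case animals 7 and 8. Aadat turned to 0.015 after blocking on the run, 0.022 in run 1 and 0.0082 in run 2, and lay between -0.24 and 0.028 (without case animal 5) without 1 animal. The cause of these turns was not tested, and the 95% interval of each of these genes covered 0. No paired analysis was possible because the labels give the animals no pairing.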

Other observations

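The 2 highest or the 2 lowest values of a probe set fell to the same pair of animals more often for some pairs than for others, a pattern noticed in the values and given as counts with no test. Control animal 4 and case animal 5 held both ends in this sense for 11 of the 38 member probe sets (28.9%), against 11.8% of all 9519 tested. They were the 2 highest for Hpd, Bckdk, Bckdha, Ass1, Gldc and the dimmer probe set of Asl and the 2 lowest for Oat, Agxt2, Mccc1, Hibadh and 1 probe set of Aldh6a1. Case animals 3 and 8, which were washed in different runs, did so for 8 (21.1%, against 8.41%), as the 2 highest for Fah, Gamt, Haao, Prodh, Mccc1, Gcdh and Kynu and the 2 lowest for Gatm. Control animal 11 and case animal 7, also of different runs, did so for 9 (23.7%, against 15.7%), as the 2 highest for Kmo, Pcca, Dbt, Hibch and 1 probe set of Aldh6a1 and the 2 lowest for Dao, Ass1, Shmt1 and the brighter probe set of Asl.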
